A study of Mus musculus with 38 samples.

Results

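The data described here are the liver transcripts of insulin receptor floxed (IR floxed) male mice 60 min after glucose, set against those of fasted IR floxed mice. The 7 libraries were chosen by the titles of the deposited columns, 3 given glucose (GTT_659, GTT_691 and GTT_699) and 4 fasted (Fast_486, Fast_491, Fast_542 and Fast_552), of 38 libraries in the series. Both groups carry the floxed insulin receptor allele, are labelled as controls and so keep the receptor in hepatocytes. The mice were 11 to 12 weeks old and of a mixed FVB/N and C57Bl/6 background. Both groups were fasted, which the labels describe as overnight and as 24 h, and the glucose group then received dextrose. Whether the fasted mice received a mock dose is not given in the sample details used here. Dosing and handling therefore cannot be told apart from glucose. Other groups used for comparison were IR floxed mice refed for 6 h (4 mice), and glucose-treated and fasted mice (3 each) of 2 knockout lines made with albumin-Cre, which is active in hepatocytes. LIRKO mice lack the hepatocyte insulin receptor, and LIRFKO mice lack both that receptor and the transcription factor FoxO1. Floxed controls of the LIRFKO line (IRF.fl) were fasted or refed only. They entered the model below but no comparison. Each library came from 1 mouse. In IR floxed, LIRKO and LIRFKO alike, every glucose mouse carried a higher number than any fasted mouse. The IR floxed glucose mice were also numbered above the refed ones. The order in which mice were numbered therefore cannot be told apart from the treatment.

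In the fasted liver, glucagon acts through cAMP and the transcription factor CREB, and FoxO1 stays in the nucleus, so that genes of gluconeogenesis and of fat oxidation are transcribed. Glucose given after a fast releases insulin. Insulin receptor signalling through Akt then moves FoxO1 out of the nucleus and lowers the transcripts of its targets, among them G6pc, Pck1 and Igfbp1.

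Values are log2 intensities of single dye channels, so a difference of 1 is a doubling of signal. Group levels are given with SD, and differences are glucose minus fasted with SE from a limma model over the 37 libraries with a group. The model adjusts for dye, so a fitted difference need not equal the difference of the group means. A gene was called changed at a Benjamini-Hochberg adjusted p under 0.05 over 22485 genes. Of these genes 47.2% averaged below 6 log2, near the floor of the values, where differences are compressed. In bulk liver, fewer cells of a type and less RNA per cell cannot be told apart.

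The hepatocyte markers (9 measured, Alb and Apoa1 among them) averaged 15.28 to 15.31 log2 in the glucose libraries and 15.29 to 15.41 in the fasted ones, near the top of the range. The 27 measured genes of pancreatic acinar cells, which make digestive enzymes, averaged 9.58 in GTT_659 and 8.54 in Fast_486, against 5.83 to 6.33 in the other 5 libraries. Cpa1, an acinar carboxypeptidase, was at 12.23, 5.64 and 5.62 in GTT_659, GTT_691 and GTT_699, and at 11.28, 5.48, 5.50 and 6.61 in Fast_486, Fast_491, Fast_542 and Fast_552. None of the 27 acinar genes was called changed, and each group held 1 such library. All 27 had a positive fitted difference, with a median of 0.46 log2, which was -0.012 without GTT_659 and Fast_486. A library of this kind in each group widens the spread, so the missing calls do not show that the groups were balanced. Of the 7 islet genes measured, 6 lay below 6 log2 in all 7 libraries. The 2 libraries lay on 1 slide but on different arrays. The main results are therefore given with and without GTT_659 and Fast_486, and the part of the acinar RNA in any result was not tested. GTT_699 and GTT_659 also differed most from the rest of their group, with 847 and 632 genes more than 1 log2 away, against 146 to 321 for the other 5 libraries.

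Few genes were called changed between glucose and fasted IR floxed liver when all 7 libraries were used. With glucose 32 genes were higher and 4 lower, which is 0.16% of the genes tested. The largest rise was in Hspa1a, the stress-inducible HSP70 chaperone, the genes that rose included 3 histone genes, and the largest fall was in Slc25a25, a calcium-dependent ATP-Mg/phosphate carrier of mitochondria. The 36 differences were between 0.36 and 2.43 log2 in size with a median of 0.71, and 11 of them were over 1. The unadjusted p was under 0.05 for 1916 genes. All 36 genes were without overlap between the 3 and the 4 libraries. So were 5.12% of the genes tested, 1151 in all (2.78% higher and 2.33% lower with glucose). Lack of overlap was thus far more common than a call, and alone it does not show a change.

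**Figure D1:**
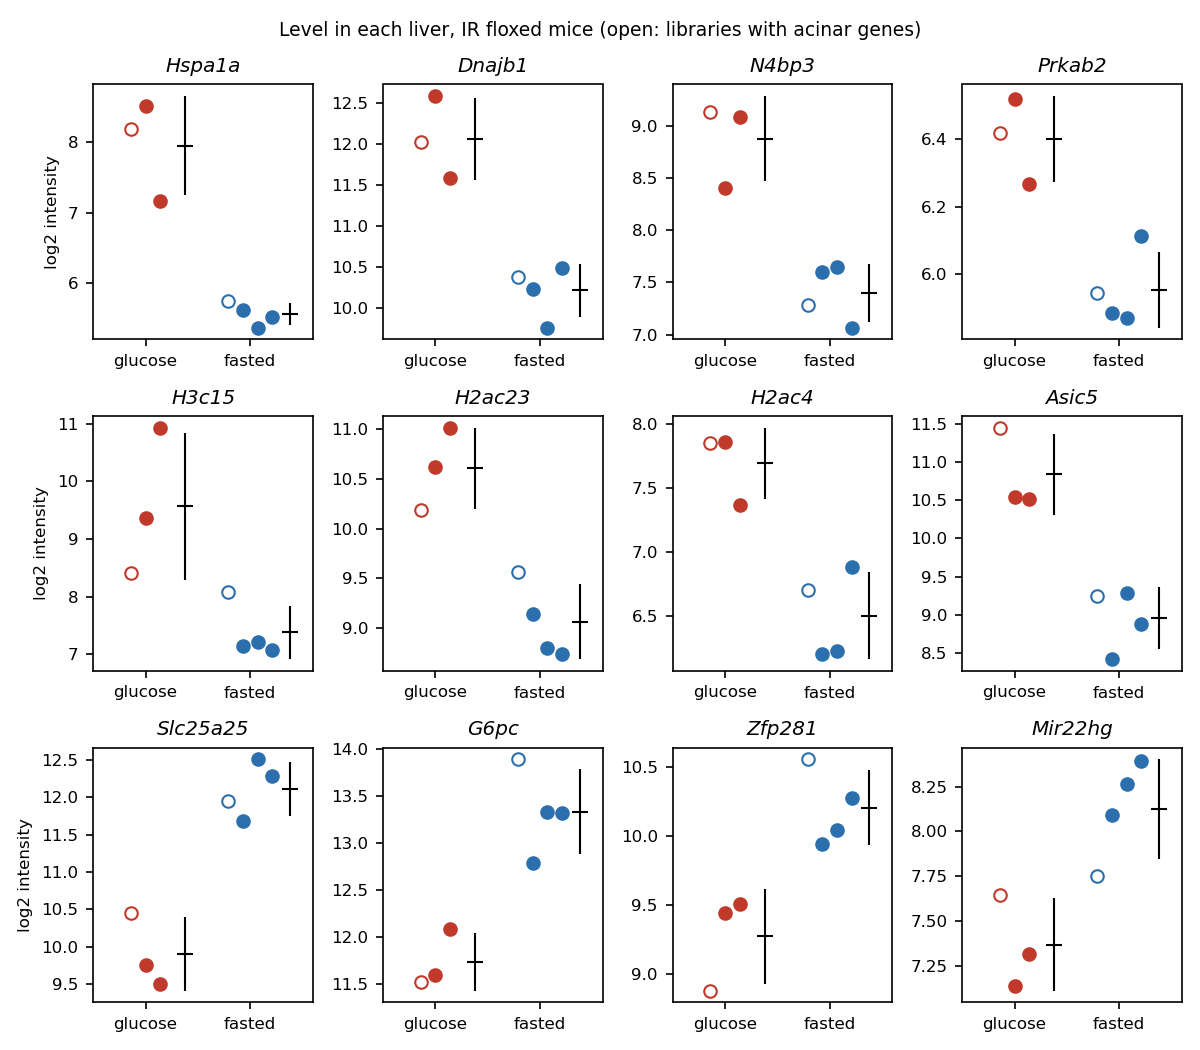
Log2 intensity of 12 genes in each of the 3 glucose (left) and 4 fasted (right) IR floxed livers; points are single mice, open points are GTT_659 and Fast_486, and bars are the mean and SD of each group. The groups do not overlap for any of the 12, although Dnajb1 and G6pc did not pass the test; H3c15 spans 8.41 to 10.93 within the glucose group.

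Hspa1a was at 8.18, 8.51 and 7.16 log2 in the glucose libraries GTT_659, GTT_691 and GTT_699, against 5.74, 5.61, 5.36 and 5.52 in the fasted libraries Fast_486, Fast_491, Fast_542 and Fast_552. Fasted values were thus at the floor and every glucose value was clear of it. The rise was 2.43 ± 0.35 log2 (adjusted p = 0.00143), and 2.42 ± 0.43 with GTT_659 and Fast_486 left out. N4bp3, which encodes a protein that binds the ubiquitin ligase NEDD4, was at 9.14, 8.41 and 9.09 in glucose livers and at 7.29, 7.60, 7.65 and 7.06 in fasted livers. It rose by 1.53 ± 0.19 log2 and had the smallest adjusted p of the comparison (0.000181), and by 1.38 ± 0.22 with the 2 libraries left out. Prkab2, the beta 2 regulatory subunit of AMP-activated protein kinase, was at 6.42, 6.52 and 6.27 in glucose livers, against 5.94, 5.88, 5.87 and 6.11 in fasted livers. This gene is dim, and its rise of 0.47 ± 0.07 log2 (adjusted p = 0.00143) is small but larger than the spread within either group. Hspa1a, N4bp3 and Prkab2 were the 3 of the 36 genes that passed whichever single library of the 7 was left out, with the weakest adjusted p being 0.0406 (without GTT_691) for Hspa1a and Prkab2 and 0.0029 for N4bp3. Cdc42ep4, an effector of the small GTPase Cdc42, passed in 6 of the 7 such fits, and its adjusted p was 0.11 without GTT_699. It was at 10.82, 10.91 and 11.42 in glucose livers, against 10.08, 9.81, 10.16 and 9.98 in fasted livers.

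Each of the other genes lost its call when at least 1 library was left out. The weakest adjusted p came without GTT_691 for H2ac4 (0.125), Mir22hg (0.221) and Il1b (0.211), without GTT_699 for H2ac23 (0.214) and Gata6 (0.116), and without Fast_552 for Zfp281 (0.166), Vmn2r3 (0.129) and Plekhf1 (0.114). Without GTT_659 and Fast_486 all of the 36 genes but Plekhf1, Vmn2r3 and Zfp281 passed. Asic5, a member of the acid-sensing ion channel family, was at 11.45, 10.54 and 10.52 log2 in the glucose libraries and at 9.24, 8.42, 9.29 and 8.89 in the fasted ones. Its rise was 1.95 ± 0.39 (adjusted p = 0.0358, and 0.129 without Fast_552), and 1.88 ± 0.45 without the 2 libraries. Plekhf1, an endosomal and lysosomal protein, was at 8.85, 8.17 and 7.86 in glucose livers, against 6.94, 7.16, 6.84 and 6.78 in fasted livers. It rose by 1.38 ± 0.27 (adjusted p = 0.0358) and no longer passed without GTT_659 and Fast_486 (1.09 ± 0.30, adjusted p = 0.0558). Sertad1, a regulator of cyclin-dependent kinase 4, was at 7.89, 7.34 and 8.57 in glucose livers and at 6.94, 6.81, 6.87 and 6.81 in the fasted ones. Its rise of 1.07 ± 0.23 had an adjusted p of 0.0452, and of 0.266 without GTT_699. Lzts2, a leucine zipper protein, was at 8.70, 8.93 and 9.43 in glucose livers, against 7.72, 7.99, 8.20 and 7.78 in fasted livers, and rose by 1.06 ± 0.18 (adjusted p = 0.0156, and 0.127 without GTT_699), or by 1.13 ± 0.21 without the 2 libraries.

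Gata6, a zinc finger transcription factor, was at 8.48, 8.66 and 8.80 log2 in glucose livers, against 8.01, 7.37, 8.07 and 7.75 in fasted livers, a rise of 0.92 ± 0.16 (adjusted p = 0.0156). Cic, a transcriptional repressor, rose by 0.51 ± 0.11. Cdk12, a kinase of the RNA polymerase II tail, rose by 0.60 ± 0.12, and Mepce, which caps 7SK RNA, by 0.59 ± 0.12. Brpf3, a bromodomain protein, rose by 0.63 ± 0.12. Il1b, the cytokine interleukin 1 beta, was at 6.42, 6.62 and 6.58 in glucose livers, against 5.84, 5.88, 6.05 and 5.88 in fasted livers, a rise of 0.65 ± 0.13 (adjusted p = 0.0358). Its 9 other probes were also higher in the glucose group, by 0.38 to 0.57 log2 between group means. Of the 36 genes, 9 had several probes, and 26 of their 27 other probes moved the same way as the one used. Il1b and Gja1 gave 9 each of these 27 probes, and a shared sign does not mean a like size. Other probes differed between group means by 0.19 and -0.06 for Cdk12, 0.11 for Chst13 and 0.06 for Fnta. For Gja1 they differed by 0.07 to 0.29, for Snx16 by 0.21 and 0.39, for Mex3d by 0.54 and for Slc25a25 by -2.24. Tnfrsf10b, a receptor for the death ligand TRAIL, rose by 0.65 ± 0.13, Ormdl3, a regulator of sphingolipid synthesis, by 0.72 ± 0.15, and Gja1, the gap junction protein connexin 43, by 0.36 ± 0.07. Gja1 was near the floor, at 6.17, 6.01 and 6.04 in glucose livers, against 5.71, 5.69, 5.73 and 5.57 in fasted livers. The remaining called rises were BC062258, Chst13, Dtx2, Fnta, Fxr2, Mex3d, Phf23, Rassf1, Rbm4b, Snx16, Tbc1d10b and Zbtb2, the largest of them BC062258 at 0.93 ± 0.20.

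The 4 genes that fell were Slc25a25, Zfp281, Mir22hg and Vmn2r3, or 0.0178% of the genes tested. Slc25a25 was at 10.46, 9.76 and 9.50 log2 in the glucose libraries, against 11.95, 11.68, 12.51 and 12.28 in the fasted ones. The nearest livers of the groups were thus more than 1 log2 apart. The fall was -2.28 ± 0.48 (adjusted p = 0.0445), and -2.53 ± 0.57 without GTT_659 and Fast_486 (adjusted p = 0.0195). A second Slc25a25 probe differed by -2.24 between group means. The call was kept in 1 of the 7 fits that left out 1 library, and the weakest adjusted p was 0.214, without GTT_699. Zfp281, a zinc finger transcription factor, was at 8.88, 9.44 and 9.50 in glucose livers, against 10.56, 9.94, 10.05 and 10.28 in fasted livers. Its fall of -0.84 ± 0.18 (adjusted p = 0.0445) became -0.56 ± 0.19 without GTT_659 and Fast_486 (adjusted p = 0.133), the libraries that were lowest and highest in their groups. Mir22hg, the host gene of the microRNA miR-22, was at 7.65, 7.14 and 7.32 in glucose livers and at 7.75, 8.09, 8.27 and 8.39 in fasted livers, and fell by -0.82 ± 0.17 (adjusted p = 0.0445), or by -1.07 ± 0.19 without the 2 libraries. Vmn2r3, a vomeronasal receptor gene with low signal here, fell by -0.68 ± 0.13 (adjusted p = 0.0358), and differed by -0.56 ± 0.15 without the 2 libraries (adjusted p = 0.0546). Its other probe differed by -0.01 between group means.

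Further falls without overlap had adjusted p from 0.0716 to 0.09 and are given as values. Gas2, a protein of the cytoskeleton, differed by -1.06 ± 0.24, Shisa5, an endoplasmic reticulum protein, by -0.82 ± 0.19, and Tnfrsf1b, a receptor for tumour necrosis factor, by -0.62 ± 0.14. Tnfsf10, the ligand TRAIL, differed by -0.60 ± 0.14, Clybl, a mitochondrial enzyme, by -0.50 ± 0.11, and Nsmce3, a subunit of the SMC5/6 complex, by -0.45 ± 0.10. Without GTT_659 and Fast_486, 5 of these 6 genes passed: Clybl (-0.66, adjusted p = 0.00549), Gas2 (-1.35, adjusted p = 0.00737), Nsmce3 (-0.57, adjusted p = 0.0123), Tnfsf10 (-0.70, adjusted p = 0.0269) and Shisa5 (-0.86, adjusted p = 0.034). Tnfrsf1b did not (-0.48, adjusted p = 0.129).

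The sequences that follow are the 250 bases before the transcription start of 4 genes that passed, taken from RefSeq (GRCm38.p6), and are shown because each holds a motif known from other work on its gene class. Capitals mark the motif in either orientation. They are the heat shock motif GAANNTTC in Hspa1a (chr17:34972157-34972406, minus strand), the cAMP response element TGACGTCA in the third of 3 listed promoters of Slc25a25 (chr2:32424067-32424316, minus strand), and the CCAAT box in H2ac23 (chr13:21810117-21810366, plus strand) and H2ac4 (chr13:23750838-23751087, plus strand).
Hspa1a: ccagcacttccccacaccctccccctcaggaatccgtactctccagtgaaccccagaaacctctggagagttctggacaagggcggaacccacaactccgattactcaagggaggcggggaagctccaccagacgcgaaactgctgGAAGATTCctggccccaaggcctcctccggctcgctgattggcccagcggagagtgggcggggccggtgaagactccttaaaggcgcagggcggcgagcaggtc
Slc25a25: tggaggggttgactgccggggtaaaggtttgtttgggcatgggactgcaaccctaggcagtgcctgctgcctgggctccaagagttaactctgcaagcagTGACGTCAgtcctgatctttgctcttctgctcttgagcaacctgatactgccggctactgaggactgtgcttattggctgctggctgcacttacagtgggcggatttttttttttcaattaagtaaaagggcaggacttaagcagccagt
H2ac23: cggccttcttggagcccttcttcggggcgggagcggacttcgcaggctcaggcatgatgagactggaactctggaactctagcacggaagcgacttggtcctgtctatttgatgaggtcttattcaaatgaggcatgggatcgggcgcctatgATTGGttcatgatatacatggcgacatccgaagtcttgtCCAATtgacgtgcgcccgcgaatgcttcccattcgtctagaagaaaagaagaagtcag
H2ac4: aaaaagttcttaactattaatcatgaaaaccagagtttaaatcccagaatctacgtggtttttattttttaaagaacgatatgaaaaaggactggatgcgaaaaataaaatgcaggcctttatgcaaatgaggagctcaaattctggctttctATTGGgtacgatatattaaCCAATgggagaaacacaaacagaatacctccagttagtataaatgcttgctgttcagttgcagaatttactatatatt

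The heat shock match in Hspa1a lay 104 to 97 bases before the start, and the cAMP response element of Slc25a25 lay 150 to 143 bases before it. The H2ac23 and H2ac4 promoters held CCAAT and its reverse complement ATTGG within 100 bases of the start. The 250 bases before the start of H3c15, the histone gene with the largest rise, held 0 matches to CCAAT, both listed promoters of Dnajb1 held 0 matches to the heat shock motif, and the other 2 listed promoters of Slc25a25 held 0 matches to TGACGTCA. Over windows of 250 bases before to 50 after the start, TGACGTCA was found in 1 of 25 promoters of genes that rose, in 1 of 4 of genes that fell and in 2.6% of the 16969 promoters of all genes measured. GAANNTTC or TTCNNGAA was found in 4 of 25 that rose, 2 of 4 that fell and 15.6% of all. CCAAT was found in 12 of 25, 3 of 4 and 41.9%. The forkhead motif TGTTTAC was in 0 of 25, 0 of 4 and 3.53%, and the E-box CACGTG in 2 of 25, 0 of 4 and 9.22%. The letters of TGTTTAC and of TGACGTCA were not in the listed window of G6pc. These matches describe letters only and were not tested.

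Among chaperones of the heat shock response, 1 of 17 measured rose (Hspa1a) and 0 fell, where 0.142% of all genes rose and 0.0178% fell, and the median difference of the list was 0.36 log2, against 0.0043 over all genes. Of the 17 genes, 16 had a positive difference. Dnajb1, the HSP40 partner of HSP70, was at 12.02, 12.59 and 11.59 in glucose livers, against 10.38, 10.23, 9.76 and 10.49 in fasted livers, without overlap. Its difference was 1.92 ± 0.46 (adjusted p = 0.0903), and it passed without GTT_659 and Fast_486 (2.06 ± 0.56, adjusted p = 0.0489). Hsph1, the HSP110 nucleotide exchange factor, differed by 0.99 ± 0.34 (adjusted p = 0.348) and overlapped between groups. Hspa8, the constitutive HSC70, differed by 0.45 ± 0.41 (adjusted p = 0.847). GTT_691 was the highest glucose library for these 4 genes. Of 20 endoplasmic reticulum chaperones 0 passed, with a median of -0.20.

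Replication histones are packaged onto newly made DNA, and their transcripts usually follow S phase. Of 45 measured, 3 rose and 0 fell, where 0.142% and 0.0178% of all genes did, the median was 0.17 log2, and the mean over the list was 8.43 to 8.48 in glucose livers and 8.18 to 8.30 in fasted livers, without overlap. H3c15 was at 8.41, 9.36 and 10.93 in GTT_659, GTT_691 and GTT_699, against 8.07, 7.15, 7.21 and 7.08 in the fasted libraries. The glucose livers differed among themselves by more than GTT_659 differed from Fast_486. The rise was 2.29 ± 0.47 (adjusted p = 0.0358), with 0.239 without GTT_699. H2ac23 was at 10.19, 10.62 and 11.01 in glucose livers, against 9.57, 9.14, 8.80 and 8.74 in fasted livers, and rose by 1.65 ± 0.33 (adjusted p = 0.0358). H2ac4 was at 7.85, 7.85 and 7.37, against 6.71, 6.21, 6.23 and 6.88 in fasted livers, and rose by 1.25 ± 0.24 (adjusted p = 0.0358). Histone genes of the same class are nearly identical in coding sequence, so a probe may read several genes of its class. Of 20 genes of S phase and the cell cycle none passed, and their median was -0.0074. Rrm2, a subunit of ribonucleotide reductase, was at 7.06, 7.61 and 8.87 in glucose livers, against 7.17, 6.88, 7.16 and 7.29 in fasted livers, so that only GTT_691 and GTT_699 were above the fasted range.

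The transcripts that insulin is known to repress through FoxO1 showed no call at 60 min. Of 20 such genes 0 passed in either direction, and their median difference was 0.025 log2. Without GTT_659 and Fast_486, 1 was higher and the median was 0.31. G6pc, which encodes the catalytic subunit of glucose-6-phosphatase, came nearest. It was at 11.53, 11.60 and 12.09 in glucose livers, against 13.90, 12.80, 13.34 and 13.32 in fasted livers. The groups did not overlap, but the difference of -1.76 ± 0.48 had an adjusted p of 0.175, and without the 2 libraries it was -1.41 ± 0.56 (adjusted p = 0.22). Pck1, the phosphoenolpyruvate carboxykinase of gluconeogenesis, was at 14.88, 14.93 and 15.10 in glucose livers, against 15.86, 15.48, 15.16 and 15.50 in fasted livers, a difference of -0.72 ± 0.48 (adjusted p = 0.731), and of -0.55 ± 0.58 without the 2 libraries. Igfbp1, a secreted binder of insulin-like growth factors, was at 12.42, 14.17 and 14.92 in glucose livers, against 12.82, 13.66, 14.54 and 14.41 in fasted livers. The 2 sets of Igfbp1 values covered much the same range, and the fitted difference was 0.0011 ± 0.78, and 0.87 ± 0.87 without the 2 libraries (adjusted p = 0.769). Irs2, an insulin receptor substrate, differed by -0.27 ± 0.30, and Ppargc1a, a coactivator of gluconeogenic genes, by -0.40 ± 0.43. Both signs turned without the 2 libraries, to 0.10 ± 0.32 for Irs2 and 0.29 ± 0.46 for Ppargc1a. In Ppargc1a the libraries GTT_659 and GTT_691 were at 8.34 and 8.40 and GTT_699 at 10.17, against 8.97 to 10.34 in fasted livers. Pdk4, a kinase that inhibits pyruvate dehydrogenase, differed by 0.27 ± 0.35. Foxo1 itself and Insr differed by 0.20 ± 0.47 and -0.13 ± 0.24. Without the 2 libraries the differences were 0.62 for Pdk4, 0.58 for Foxo1 and -0.31 for Insr.

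Genes tied to the sensing and use of glucose were also without a call when all 7 libraries were used. Txnip, a thioredoxin-binding protein whose transcript is raised by the glucose sensor ChREBP in many cells, was at 8.11, 8.43 and 8.57 in glucose livers, against 8.84, 8.84, 9.24 and 9.41 in fasted livers. The groups did not overlap and the glucose livers were lower, by -0.74 ± 0.24 (adjusted p = 0.29), and by -0.74 ± 0.28 without the 2 libraries (adjusted p = 0.197). Angptl8, a liver hormone induced by feeding, was at 11.71, 10.10 and 11.33, against 9.65, 9.56, 10.57 and 8.95 in fasted livers, a difference of 1.43 ± 0.56 (adjusted p = 0.455, and 0.588 without the 2 libraries). Srebf1 and Fasn, of fatty acid synthesis, differed by -0.14 ± 0.24 and 0.21 ± 0.31, and by -0.44 ± 0.27 and 0.29 ± 0.38 without the 2 libraries. In the lists of ChREBP-linked genes (14 measured), glycolysis (12), fatty acid synthesis (15), cholesterol synthesis (19) and glycogen metabolism (15), 0 genes passed, and the medians were -0.064, 0.041, -0.062, -0.23 and -0.030. For cAMP and CREB targets, 1 of 15 fell, Slc25a25, where 0.0178% of all genes did, and the median was -0.25. That median was 0.021 without GTT_659 and Fast_486. Gluconeogenesis had 0 of 11, with a median of -0.0072, and without the 2 libraries 1 higher and a median of 0.092.

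**Figure D2:**
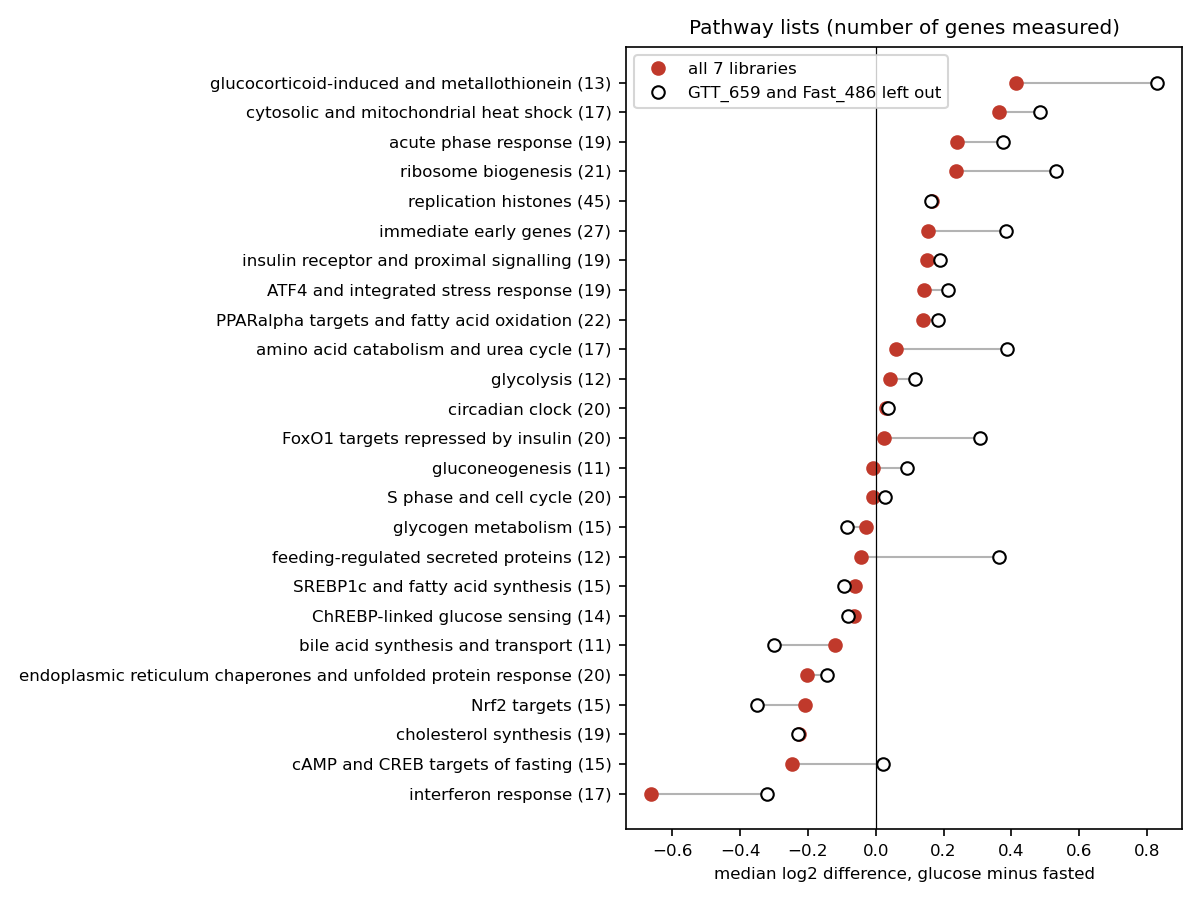
Median log2 difference, glucose minus fasted, of the measured members of each of the 25 pathway lists (number measured in brackets), with all 7 libraries (filled) and with GTT_659 and Fast_486 left out (open). Medians of the glucocorticoid, ribosome biogenesis, immediate early, FoxO1, secreted protein, and cAMP and CREB lists, among others, moved upward when the 2 libraries were left out. That of amino acid catabolism and urea cycle was 0.39 without them and 0.061 with them, and that of the interferon list was -0.32 without them and -0.66 with them.

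The lists farthest from the median of all genes held no called gene. The interferon response had 0 of 17 and a median of -0.66 log2, with 15 members lower. Its mean was 7.06 to 7.70 in glucose livers and 7.68 to 8.90 in fasted livers, the highest being Fast_486 and the lowest GTT_699. Irf7, a transcription factor of that response, was at 6.26, 6.18 and 5.91, against 7.66, 7.23, 6.68 and 7.13 in fasted livers (adjusted p = 0.09, and 0.048 without the 2 libraries, where it fell by -1.02 ± 0.27). Genes induced by glucocorticoids, with the metallothioneins, had 0 of 13 and a median of 0.41. Cdkn1a, an inhibitor of cyclin-dependent kinases, was at 10.62, 10.74 and 10.96 in glucose livers, against 10.81, 7.33, 10.45 and 6.70 in fasted livers, so the fasted mice fell into high and low pairs. Clock genes also differed among fasted mice: Dbp, a clock output factor, was at 8.39, 8.64 and 8.79 in glucose livers and at 8.47, 11.15, 8.92 and 12.90 in Fast_486, Fast_491, Fast_542 and Fast_552, and Arntl, a core clock activator, was lowest in Fast_552 (5.97) and next lowest in Fast_491 (7.33). None of 20 clock genes passed. Whether the hour of death moved with these values was not tested.

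PPARalpha targets and fatty acid oxidation had 0 of 22 and a median of 0.14. Acot1, an acyl-CoA thioesterase, was at 13.38, 14.80 and 13.58 in glucose livers, against 11.51, 10.73, 13.27 and 12.94 in fasted livers, and Ehhadh, a peroxisomal oxidation enzyme, was at 13.91, 14.84 and 14.24, against 12.40, 13.01, 13.36 and 13.58. Neither gene overlapped between groups, and their adjusted p were 0.19 and 0.193, or 0.102 and 0.112 without the 2 libraries. The other lists had no called gene either: immediate early genes (27, median 0.16), ribosome biogenesis (21, median 0.24), acute phase response (19, median 0.24), ATF4 targets (19, median 0.14), Nrf2 targets (15, median -0.21), bile acid genes (11, median -0.12), amino acid catabolism and urea cycle (17, median 0.061), insulin signalling (19, median 0.15) and secreted proteins of feeding (12, median -0.042). No marker of any of 14 cell types was called. Kupffer cell and macrophage markers averaged 7.96 to 8.58 in glucose livers and 8.44 to 8.84 in fasted livers, and neutrophil markers 6.42 to 7.40 and 6.63 to 6.92.

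**Figure D3:**
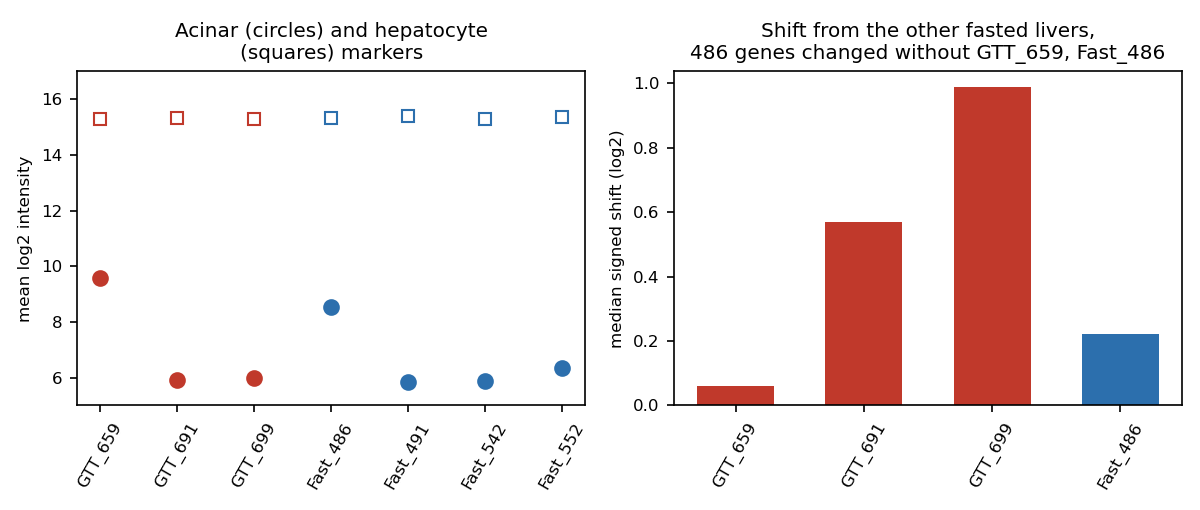
Left, mean log2 intensity of acinar (circles) and hepatocyte (squares) markers in each of the 3 glucose and 4 fasted libraries; right, median shift of each library from the mean of Fast_491, Fast_542 and Fast_552, signed by the direction of change, over the genes changed when GTT_659 and Fast_486 were left out. Acinar means reach 9.58 in GTT_659 and 8.54 in Fast_486, and the shift is 0.99 in GTT_699, 0.57 in GTT_691 and 0.059 in GTT_659.

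Without GTT_659 and Fast_486 far more genes were called. Then 291 genes were higher with glucose and 195 lower, together 2.16% of the genes tested. In this smaller split 24.1% of all genes had no overlap between the groups. The calls rest on GTT_691 and GTT_699 as the only glucose livers. Of the 36 genes above, 33 were among the genes called here, and the exceptions were Plekhf1, Vmn2r3 and Zfp281. Over these genes the median shift from the other 3 fasted livers, signed by direction, was 0.99 log2 in GTT_699, 0.57 in GTT_691 and 0.059 in GTT_659, which was not used to choose them. GTT_659 was on the same side as the other glucose livers for 281 genes (57.8%), and Fast_486, also not used, for 394 (81.1%) with a median of 0.22. Leaving out GTT_659 alone gave 375 genes, and leaving out Fast_486 alone gave 30. Leaving out GTT_699 together with both gave 13, but the glucose group was then GTT_691 alone, assumed to vary like the other groups.

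The largest changes in this reduced set were, among rises, in H3c15, Hspa1a, Eif4ebp3, Cidec and Dnajb1, and among falls in Inmt, Akr1c6, Car3, Cyp2a4 and Slc25a25. Akr1c6, a hydroxysteroid dehydrogenase, was at 14.76, 12.36 and 11.84 log2 in GTT_659, GTT_691 and GTT_699, against 14.59, 15.47, 14.57 and 14.70 in the fasted libraries. It fell by -3.23 ± 0.42 without the 2 libraries (adjusted p = 0.000247), and the difference over all 7 was -2.12 ± 0.51 (adjusted p = 0.102). Inmt, an indolethylamine methyltransferase, was at 13.05, 10.80 and 9.39, against 11.19, 12.82, 13.15 and 13.00 in fasted livers. It fell by -3.39 ± 0.69 without the 2 libraries and differed by -1.73 ± 0.76 with them. Car3, a carbonic anhydrase abundant in male liver, was at 13.66, 9.69 and 8.78, against 12.51, 11.99, 11.62 and 11.97 in fasted livers. It fell by -3.23 ± 0.74 without the 2 libraries. For Akr1c6, Inmt and Car3, GTT_659 lay within or above the fasted range while the other glucose livers were below it. Cyp2a4, a steroid hydroxylase, fell by -3.04 ± 0.82 without the 2 libraries (adjusted p = 0.0496). Among rises, Eif4ebp3, a repressor of cap-dependent translation, was at 11.39, 14.18 and 15.38, against 14.17, 13.45, 12.92 and 12.18 in fasted livers, and Cidec, a lipid droplet protein, was at 9.88, 12.44 and 12.27, against 9.83, 9.70, 10.43 and 11.19. Eif4ebp3 rose by 2.33 ± 0.52 and Cidec by 2.23 ± 0.60 without the 2 libraries, while GTT_659 lay below all fasted livers for Eif4ebp3 and within their range for Cidec.

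Several lists gained calls in the reduced set, where 1.29% of all genes rose and 0.867% fell. Slc37a4, the glucose-6-phosphate transporter of the gluconeogenesis list, rose by 0.87 ± 0.21, Pfkfb3, a glycolytic regulator, by 1.69 ± 0.40 and Acacb, an acetyl-CoA carboxylase, by 1.26 ± 0.27. Slc2a2, the glucose transporter GLUT2 of the ChREBP list, fell by -1.61 ± 0.41. Each of these 4 was the 1 member of its list that passed. With all 7 libraries their differences were 0.34 ± 0.24, 0.87 ± 0.42, 0.59 ± 0.31 and -0.96 ± 0.39 (adjusted p = 0.767, 0.573, 0.623 and 0.476). GTT_659 lay below all fasted livers for Slc37a4 (12.88) and Acacb (9.44), and within their range for Pfkfb3 and Slc2a2. Ribosome biogenesis had 6 of 21 higher with a median of 0.53 log2. Ddx21, an RNA helicase of the nucleolus, was at 8.50, 9.48 and 10.43 in GTT_659, GTT_691 and GTT_699, against 9.05, 8.79, 9.13 and 8.24 in the fasted libraries, and rose by 1.26 ± 0.26 (adjusted p = 0.0112). Immediate early genes had 4 of 27 higher with a median of 0.38. Of these, Fosl2, an AP-1 subunit, rose by 1.30 ± 0.18 (adjusted p = 0.000414), Klf2, a Kruppel-like factor, by 1.03 ± 0.23 (adjusted p = 0.0184), and Gadd45b, a stress-response gene, by 1.99 ± 0.51 (adjusted p = 0.0372). With all 7 libraries the differences of Fosl2, Klf2 and Gadd45b were 0.81 ± 0.22, 0.79 ± 0.21 and 1.48 ± 0.45 (adjusted p = 0.159, 0.157 and 0.249). Replication histones had 5 higher and 1 lower of 45, and glycogen metabolism 2 higher and 2 lower of 15. Among glycogen genes, Gyg, the glycogenin primer of glycogen, rose by 0.61 ± 0.14 and Ugp2, which makes UDP-glucose, fell by -0.81 ± 0.21. Fkbp5, a glucocorticoid-induced immunophilin, rose by 1.19 ± 0.23 (adjusted p = 0.00737), and Aass, an enzyme of lysine breakdown, by 2.05 ± 0.43 (adjusted p = 0.012). With all 7 libraries the differences of Fkbp5 and Aass were 0.55 ± 0.27 and 1.13 ± 0.45 (adjusted p = 0.589 and 0.456). Those of Ddx21, Gyg and Ugp2 were 0.67 ± 0.29, 0.37 ± 0.14 and -0.63 ± 0.18 (adjusted p = 0.514, 0.404 and 0.224). Pnpla2, a triglyceride lipase, was the 1 FoxO1 target of 20 that passed, and it was higher by 0.91. Promoters of the reduced set held TGACGTCA in 14 of 231 genes that rose (6.06%) and in 7 of 157 that fell (4.46%), beside 2.6% of all. The shares in the same order were 2.16%, 5.73% and 3.53% for TGTTTAC, 17.7%, 12.7% and 15.6% for the heat shock motif, 13.4%, 8.92% and 9.22% for CACGTG, and 39.8%, 46.5% and 41.9% for CCAAT.

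Within the 2 slides that held both groups, the single-mouse differences could be set side by side. In both pairs the glucose library was in Cy5 and the fasted library in Cy3. These differences were not adjusted for dye, so dye cannot be told apart from treatment in them. GTT_699 minus Fast_491 and GTT_659 minus Fast_486 had the sign of the fitted change for each of the 36 genes, which the choice of genes without overlap fixes. Hspa1a differed by 1.55 and 2.44, N4bp3 by 1.49 and 1.86, and Slc25a25 by -2.18 and -1.49. H3c15 differed by 3.78 in the first pair and 0.34 in the second. With slide as a term in the fit, 7 of the 36 genes were called.

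The next question was whether the response depended on the hepatocyte insulin receptor. For LIRKO mice, 33 of the 36 genes had the same direction of response, against 57.9% of all genes. Of these, 7 passed in LIRKO on their own (H2ac4, Hspa1a, Lzts2, Prkab2, Snx16, Tnfrsf10b and Zbtb2), where 0.467% of all genes were called. The count of genes called in LIRKO was 105, and it ran between 5 (without IR.KO_GTT_690) and 547 (without IR.KO_GTT_697) when 1 LIRKO library was left out. The LIRKO mice were other animals, but 1 glucose and 1 fasted library of each genotype shared an array. Their glucose mice also carried higher numbers than their fasted mice. A shared direction of response therefore cannot tell glucose apart from numbering order, dosing or handling. Hspa1a averaged 7.88 ± 0.88 log2 in glucose and 6.07 ± 0.30 in fasted LIRKO livers (SD, n = 3 each), a response of 1.88 ± 0.37 (adjusted p = 0.0243). H2ac4 responded by 1.36 ± 0.25 in LIRKO (adjusted p = 0.019). G6pc averaged 13.67 ± 0.42 in glucose and 12.83 ± 0.52 in fasted LIRKO livers, so its response was 0.97 in LIRKO and -1.76 in IR floxed, and the difference of responses was -2.73 (adjusted p = 0.353). No gene passed the test of that difference over all 7 libraries in limma, while 1542 had an unadjusted p under 0.05. Without GTT_659 and Fast_486, 67 genes passed (0.298%), and without GTT_659 alone 48. A p that misses the threshold does not show that the responses were alike.

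**Figure D4:**
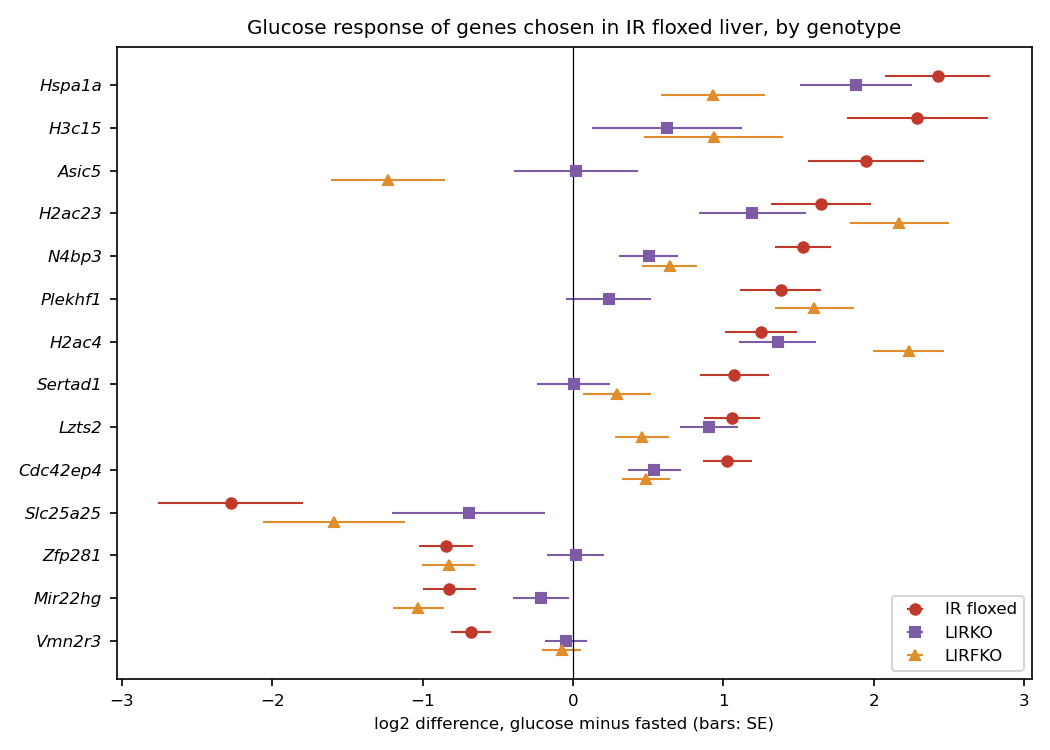
Log2 difference, glucose minus fasted, with SE, in IR floxed, LIRKO and LIRFKO liver for the 10 largest called rises and the 4 called falls of IR floxed liver. The genes were chosen on the IR floxed values; Hspa1a and H2ac4 had positive values in all 3 genotypes, and Asic5 was at -1.23 in LIRFKO.

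For LIRFKO mice, 28 of the 36 genes had the same direction, against 51.2% of all genes. Of these, H2ac23, H2ac4, Mir22hg, Plekhf1 and Zfp281 passed in LIRFKO on their own, where 0.654% of genes were called. That count was 147, and it ran between 18 (without IRF.KO_Fast_525) and 161 when 1 LIRFKO library was left out. H2ac4 averaged 8.82 ± 0.22 in glucose and 6.56 ± 0.12 in fasted LIRFKO livers (SD, n = 3 each), and H2ac23 10.82 ± 0.81 and 8.75 ± 0.07. Both histone genes responded by over 2 log2 there. The LIRFKO glucose mice were likewise numbered above the fasted ones, so numbering order cannot be told apart from glucose in LIRFKO either. The test of the difference of responses called 4 genes (0.0178%), 1 with a higher response in IR floxed (0.00445%) and 3 with a lower one (0.0133%). The IRF.fl controls of the LIRFKO line had no glucose group. In this test the line of mice therefore cannot be told apart from the loss of receptor and FoxO1. Asic5 responded by 1.95 in IR floxed and -1.23 in LIRFKO, a difference of 3.18 (adjusted p = 0.0197). It averaged 8.87 ± 0.29 in glucose and 10.11 ± 1.36 in fasted LIRFKO livers, and in LIRKO it averaged 7.99 ± 0.18 and 7.96 ± 0.31. Slc22a26 and Slc22a27, of the family of organic anion transporters, lay between 5.34 and 5.57 in all 7 IR floxed libraries, near the floor. In LIRFKO, Slc22a26 averaged 8.14 ± 0.72 with glucose and 5.63 ± 0.17 fasted, and Slc22a27 7.03 ± 0.51 with glucose and 5.47 ± 0.03 fasted. The differences of responses were -2.77 and -1.79. Asb13, a substrate receptor of a ubiquitin ligase, was at 9.03, 9.31 and 8.66 in glucose IR floxed livers, against 9.38, 9.64, 9.76 and 9.63 in fasted ones, and its response differed by -1.12 from that of LIRFKO (adjusted p = 0.0197). Without GTT_659 and Fast_486, 95 genes passed this test (0.423%), all 4 among them.

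Many transcripts differed between IR floxed livers 60 min after glucose and those refed for 6 h. Every glucose mouse carried a higher number than any refed mouse, so numbering order cannot be told apart from treatment here. Between glucose and refed IR floxed livers, 704 genes were higher and 729 lower with glucose (6.37% of genes), and 1889 differed (8.4%, with 4.49% higher and 3.91% lower) without GTT_659 and Fast_486. These counts rest on the spread shared over all groups, and with only the glucose and refed groups fitted 3 genes were called. Among the 20 FoxO1 targets, 9 were higher with glucose than after refeeding and 1 was lower, where 3.13% and 3.24% of all genes were. Igfbp1 averaged 13.83 ± 1.28 with glucose (n = 3) and 10.29 ± 1.90 after refeeding (n = 4), a difference of 3.61 ± 0.74 (adjusted p = 0.00311). Ppargc1a differed by 1.42 ± 0.41, Pdk4 by 1.22 ± 0.33 and Irs2 by 0.96 ± 0.28 in the same comparison. G6pc averaged 11.74 ± 0.31 with glucose and 11.21 ± 1.18 after refeeding, and its difference of 0.32 ± 0.45 had an adjusted p of 0.817. Gadd45a, a growth arrest gene, was the member lower with glucose, by -1.48 ± 0.28.

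**Figure D5:**
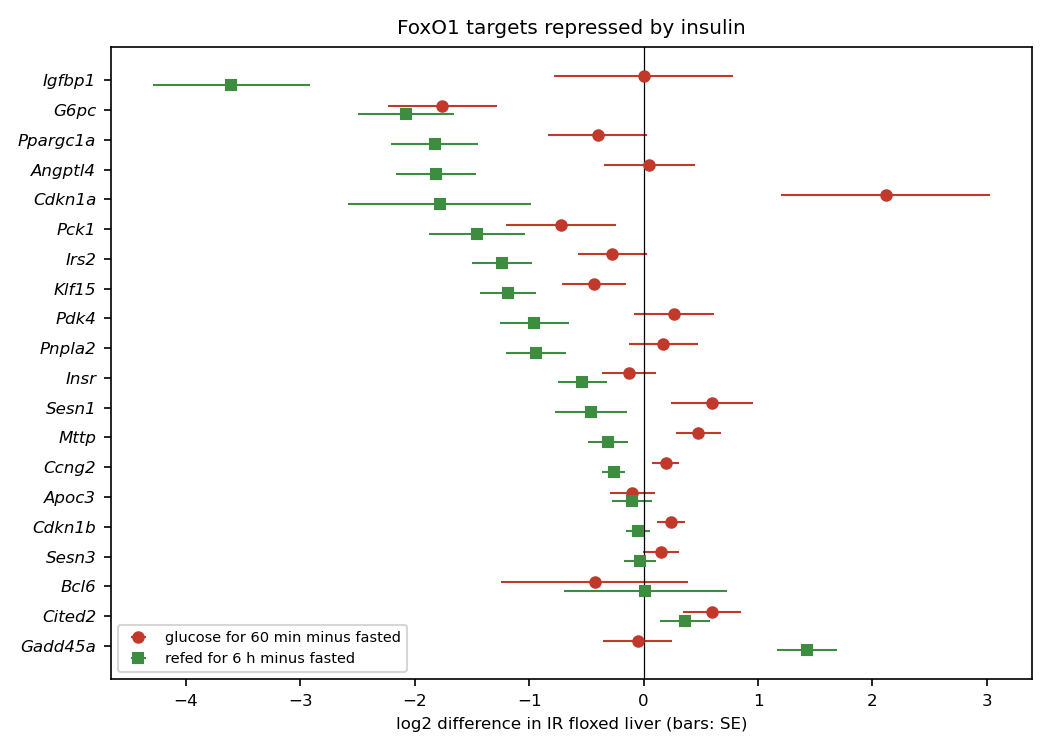
Log2 difference from fasted IR floxed liver with SE for the 20 FoxO1 targets, after glucose for 60 min (circles) and after refeeding for 6 h (squares); both comparisons share the 4 fasted libraries. Refeeding values run to -3.60 for Igfbp1, whose glucose value is 0.0011, and both values of G6pc are below -1.7.

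Against fasted liver, 8 of the 20 FoxO1 targets fell and 1 rose on refeeding, where 1.49% and 2.12% of all genes did, a comparison that uses the same fasted mice as the glucose response. Slc25a25 fell on refeeding too, by -1.58 (adjusted p = 0.0319), to 10.49 ± 0.68 in refed livers (n = 4), and differed between glucose and refed livers by -0.70 ± 0.45 (adjusted p = 0.473). For the counts of glucose against refed livers that follow, 3.13% of all genes were higher with glucose and 3.24% lower. Endoplasmic reticulum chaperones were lower with glucose than after refeeding for 16 of 20 genes, with a median of -1.28, and Pdia4, a disulphide isomerase, differed by -1.98 ± 0.33. Against fasted liver, 16 of the 20 chaperones rose on refeeding (median 1.11), while 0 were called with glucose (median -0.20). Glucocorticoid-induced genes and metallothioneins were higher with glucose for 9 of 13, with a median of 1.55, and PPARalpha targets for 8 of 22. Ddit4, an inhibitor of mTORC1, differed by 3.41 ± 0.79, although it ran from 10.09 to 13.59 among glucose livers and from 10.23 to 14.44 among fasted ones. Immediate early genes were higher with glucose for 7 of 27, with Klf2 at 1.83 ± 0.20 and Gadd45b at 2.56 ± 0.42. Hspa1a was higher with glucose than after refeeding by 1.97 ± 0.33 (adjusted p = 0.000565), and Cidec by 3.18 ± 0.56 (adjusted p = 0.000747). Fatty acid synthesis had 1 member higher and 5 lower of 15. Thrsp, a lipogenic nuclear protein, was lower with glucose by -3.34 ± 0.81, and Nudt7, a peroxisomal hydrolase of coenzyme A, by -3.12 ± 0.29.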

How the data were processed

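Agilent two-colour arrays measured liver RNA, with a separate mouse in each dye channel. The values used are log2 single-channel intensities as the authors deposited them. R 3.1.0 and limma 3.20.1 appear in the submitters' processing notes; how background and normalization were handled is not given in the sources used here. A gene was represented by its probe of highest mean over all columns (22485 genes from 33026 named features), and the 12194 unnamed features had a fit of their own. Group means over 37 libraries were fitted in limma 3.58.1 (statmod 1.5.0, R 4.3.3), with a dye effect and with libraries of an array treated as correlated (0.358). Benjamini-Hochberg adjustment ran over all genes, threshold 0.05. The fit was also run on data simulated from its own estimates, which cannot show whether the real libraries meet its assumptions. IRF.KO_GTT_724, whose title and treatment label conflict, was left out. The comparison, gene lists, motifs and alternatives were chosen with earlier results of these data known, so lists are described by counts and medians.

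Genes were named by rule: the 10 largest called rises and falls above the median level (falls filled by smallest p among genes without overlap), up to 5 per direction without GTT_659 and Fast_486, up to 3 members of smallest p per list, key genes of insulin action, up to 5 per direction for each other comparison, and 4 acinar genes. Other called genes, and genes named to show variation between mice or a list's exceptions, were chosen after their values were seen. Slide and array come from the scanner file named in each sample's description. Alternatives changed the array block, the dye term, the slide, the groups fitted, the empirical Bayes setting, the filter on level, the probe rule or the normalization, or left out libraries. Signal over background was not used here, and the number of arrays limits the precision. That samples of a group are separate mice rests on their numbers in the titles.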

Additional observations from a re-analysis of the deposited data

Results flagged for a closer look

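Among the 136 named genes, 10 had 1 of the 4 fasted libraries far from the other 3, by Dixon's criterion, which chance meets in about 1 in 20 groups. Fast_486 was the highest for H3c15 (8.07 log2), Ddit3 (7.25), Ctrb1 (12.18) and Sycn (10.95), and the lowest for Inmt (11.19) and Nags (9.88). Ctrb1 and Sycn are acinar genes. Fast_491 was the highest for Akr1c6 (15.47) and the lowest for Foxo1 (9.98). Fast_552 was the lowest for Phka2 (9.02), and Fast_542 the highest for Brpf3 (8.37).

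The glucose response differed between IR floxed and LIRFKO for 4 genes by the test of the difference: Asic5 (3.18), Slc22a26 (-2.77), Slc22a27 (-1.79) and Asb13 (-1.12). The last 3 were not called changed by glucose in IR floxed liver.

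Features without a gene name were not used in the comparisons above, and 3 of 12194 changed with glucose in IR floxed liver. The mean of the acinar genes was highest in the whole series in IRF.KO_Refed_478 (10.16), a refed LIRFKO liver on the same slide as GTT_659 and Fast_486.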

How the results depend on the processing

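With glucose 32 genes were called higher (raised) and 4 lower (lowered). Raised genes numbered 15 with no array block, 7 with slide as a term, 0 with only the 7 libraries compared (996 genes at an unadjusted p under 0.05 in limma), 291 without GTT_659 and Fast_486, and 4 with GTT_699 left out as well, an alternative chosen after seeing the data that leaves GTT_691 as the only glucose library, assumed to vary like the other groups. Lowered genes numbered 2 with no array block, 2 with no dye term, 0 with slide as a term, 0 with only the libraries compared, 195 without GTT_659 and Fast_486, 9 with GTT_699 left out as well, and 1 without IRF.fl_Fast_523. Leaving out 1 library at a time gave 5 (GTT_699 or Fast_552) to 219 (GTT_659) raised genes and 0 to 156 lowered genes. Other alternatives kept both counts within 1.5 times. The LIRKO difference was 0 genes, 67 without GTT_659 and Fast_486, and 0 to 48 with 1 library left out. The LIRFKO difference was 4 genes, 2 with no array block, 0 with only the groups compared, 2 with the filter on level, 95 without GTT_659 and Fast_486, and 2 to 75 with 1 library left out. Glucose against refed was 1433 genes, 950 with no array block, 3 with only the groups compared, and 631 to 1859 with 1 library left out. No named gene called with all 7 libraries changed sign under these alternatives. Eif4ebp3, called without GTT_659 and Fast_486 but not with all 7, was at -0.14 without GTT_699. The causes were not tested. No paired analysis was possible because the mice of the groups compared share no replicate numbers. Genes near the floor of the signal had compressed differences.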

Other observations

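The acinar means of the 8 libraries on the slide of GTT_659 and Fast_486 fell into 3 above 8.5 and the others between 5.72 and 6.60. The libraries that shared an array with those 3 were at 6.25 (with GTT_659), 6.12 (with Fast_486) and 6.60 (with IRF.KO_Refed_478). These were the fourth, sixth and seventh highest of the 38 libraries, and Fast_552, on another slide, was the fifth at 6.33. IRF.KO_GTT_724, whose treatment labels conflict, is the library that shared the array of GTT_659, and it went into no comparison.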
